A study of Homo sapiens with 12 samples.

Results

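The data compared RCC4 cells given erastin with RCC4 cells given DMSO, where all cells carried a control siRNA. Of the 12 arrays in the series, 6 were chosen by their titles. The 3 siNT erastin arrays held RNA of cells with a non-targeting siRNA (siNT) and 1 µM erastin for 7 hours. The 3 siNT DMSO arrays held RNA of cells with the same siRNA and the DMSO vehicle for 7 hours. The siRNA had been present for 2 days in both groups, so no array held untransfected cells. The other 6 arrays held cells with an siRNA against WWTR1, the gene of the Hippo pathway coactivator TAZ, with erastin or with DMSO, and are called siTAZ. RCC4 is a long-established human kidney cancer line of the clear cell type. It lacks functional VHL, so that its hypoxia-inducible factors stay on in normal oxygen, and the results are those of a single line. The arrays of a group are biological triplicates by the submitters' account. The p-values measure only the spread between arrays of the same group, pooled over all 12 arrays, siTAZ included. In bulk RNA, a change per cell and a change in the share of responding cells cannot be told apart.

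Erastin blocks the cystine/glutamate antiporter, which is made of the SLC7A11 and SLC3A2 proteins and supplies cells with cystine for glutathione. Cells that run out of glutathione can die by ferroptosis, in which iron drives the peroxidation of membrane lipids. Cells short of an amino acid also phosphorylate the translation factor eIF2α, which lets more ATF4 protein be made. ATF4 pairs with C/EBP proteins and switches on genes for amino acid synthesis, uptake and transfer RNA charging. The comparison asks which transcripts differ at an early hour of erastin, both inside that ATF4 programme and outside it.

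Values are log2 probe set signals of 11963 genes, each measured by its brightest probe set. Differences are log2 fold changes of erastin over DMSO, each ± its standard error from limma (n = 3 arrays in either group). That standard error uses the pooled spread of all 12 arrays. The words rose and fell are kept for genes with a limma p under 0.05 after Benjamini-Hochberg adjustment over all genes. For 1 gene with 3 arrays in each group, the smallest p an exact permutation test can reach is 0.1, so none was made. Of 18 markers of renal tubule and clear cell carcinoma, 14 had a probe set, with a median log2 signal of 10.5 and summed signals of 144.9 to 145.4 on erastin arrays and 145.0 to 145.6 on DMSO arrays. PAX8, a kidney lineage transcription factor, had signals of 10.56, 10.58 and 10.40 with erastin and 10.64, 10.60 and 10.59 with DMSO. Markers of leukocytes (13 genes), endothelium (10), erythroid cells (6) and fibroblasts (11) had median signals of 4.64, 4.55, 4.51 and 4.6, and 0 of them passed the test by limma. The median signal of all genes was 7.24. Erastin array 3 stood apart from the others. Its actin signal was only 1.49 higher at the 3′ end than at the 5′ end on the log2 scale, while the other siNT erastin arrays had 2.82 and 2.47 and the siNT DMSO arrays 2.40, 2.66 and 2.97. The group means were 2.26 ± 0.69 with erastin and 2.68 ± 0.28 with DMSO (SD, n = 3 each). The part of this array difference in single results was not tested beyond the fits named below.

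Few genes passed the test at 7 hours of erastin, and most of these differed by well under 2-fold. A gene that did not pass can still differ. In all, 96 genes passed the test, 0.802% of those measured: 63 rose (0.527%) and 33 fell (0.276%). CHAC1, INHBE, DDIT4 and CTH rose at least 2-fold, and 0 genes fell by as much. Without a correction for multiple tests, 1245 genes had a limma p under 0.05. The erastin and DMSO arrays of all 96 genes did not overlap, which was true of 1727 genes in total (14.4%), 708 with every erastin array above (5.92%) and 1019 with every erastin array below (8.52%). The median log2 fold change of all genes was −0.0035. Of the 63 genes that rose, 30 belong to 5 lists of ATF4-linked genes and 33 do not. None of the 33 that fell is in those lists.

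**Figure D1:**
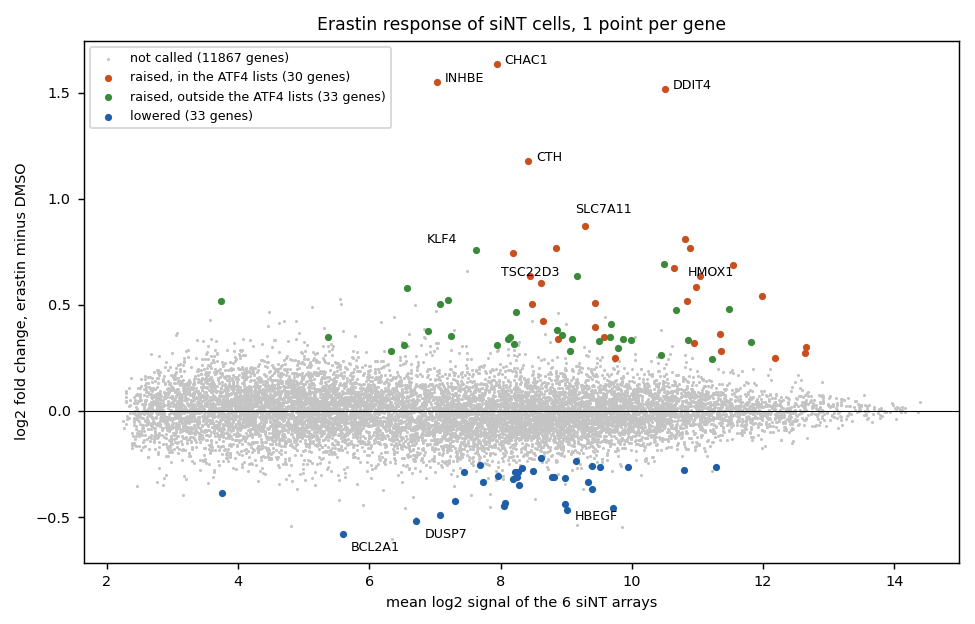
Log2 fold change of erastin over DMSO in siNT cells (vertical axis) against the mean log2 signal of the 6 siNT arrays (horizontal axis), 1 point per gene. The 30 raised ATF4 list genes reach 1.63 for CHAC1, the 33 other raised genes lie between 0.24 and 0.76, and the 33 lowered genes between −0.58 and −0.22.

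The ATF4 lists held 76 genes, of which 64 were measured. Of these, 30 rose and 0 fell, with a median log2 fold change of 0.26, against −0.0035 over all genes. Every erastin array lay above every DMSO array for 65.6% of the 64 genes, against 5.92% of all genes. The mean log2 signal of the lists was 9.77, 9.73 and 9.78 on the erastin arrays and 9.39, 9.39 and 9.38 on the DMSO arrays. Of the 30 raised genes, 15 passed the test with any 1 of the 6 siNT arrays left out, and 16 to 22 passed with a given array left out. The 5 genes ATF4, CARS1, SARS1, SLC7A5 and WARS1 passed in 0 of these 6 fits. All 30 kept their sign in each of those fits. With the actin difference as a covariate 26 of the 30 passed, and with only the 6 siNT arrays in the fit 13 passed. Erastin array 3 lay farthest from DMSO in 20 of the 30 genes, with a median difference of 0.60, against 0.56 for erastin array 1 and 0.51 for erastin array 2.

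The regulators of the programme came up in 8 of 12 measured genes, with a median log2 fold change of 0.35. DDIT4, an inhibitor of mTORC1 that is also a target of hypoxia-inducible factors, had signals of 11.29, 11.14 and 11.38 with erastin and 9.74, 9.77 and 9.75 with DMSO. The groups were far apart, and DDIT4 rose 2.86-fold (1.52 ± 0.09, limma adjusted p = 9.25e-06). ATF3, a stress-induced repressor, had 9.22, 9.22 and 9.24 with erastin and 8.42, 8.54 and 8.42 with DMSO, and rose by 0.77 ± 0.06. The transcript of ATF4 itself had high signals of 12.77, 12.81 and 12.74 with erastin and 12.51, 12.46 and 12.52 with DMSO, and rose by 0.27 ± 0.05 (limma adjusted p = 0.0379). It passed in 0 of the 6 fits with an array left out, where the limma adjusted p was 0.0644 to 0.167. CEBPB, a partner of ATF4 on DNA, rose by 0.64 ± 0.06 and its relative CEBPG by 0.34 ± 0.06. DDIT3, the pro-apoptotic factor CHOP, rose by 0.60 ± 0.09, and TRIB3, a pseudokinase that restrains ATF4, by 0.36 ± 0.05. NUPR1, a chromatin-binding stress protein, rose by 0.58 ± 0.10. The members ATF5, EIF4EBP1, PPP1R15A and KLHL24 did not pass, with log2 fold changes of −0.18, 0.19, 0.13 and 0.09.

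Among the enzymes of amino acid metabolism 7 of 13 measured genes rose, with a median of 0.54. CHAC1, which degrades glutathione, had signals of 8.68, 8.73 and 8.86 with erastin and 7.03, 7.18 and 7.16 with DMSO. This was the largest log2 fold change of any called gene, 1.63 ± 0.11 or 3.10-fold (limma adjusted p = 1.02e-05). CTH, which makes cysteine from cystathionine, had 8.85, 8.93 and 9.25 with erastin and 7.89, 7.88 and 7.73 with DMSO, and rose 2.27-fold (1.18 ± 0.10). CBS, which makes the cystathionine, had low signals of 4.99, 4.96 and 5.13 with erastin and 4.75, 4.99 and 4.64 with DMSO, and the groups overlapped. ASNS, the asparagine synthetase, rose by 0.81 ± 0.05. PCK2, a mitochondrial enzyme that makes phosphoenolpyruvate, rose by 0.74 ± 0.09, and MTHFD2, an enzyme of mitochondrial folate metabolism, by 0.54 ± 0.06. In serine synthesis, PSPH, the last step, rose by 0.63 ± 0.10. PHGDH, the first step, had 6.42, 6.41 and 6.04 with erastin and 6.26, 6.27 and 6.36 with DMSO, a log2 fold change of −0.01 ± 0.09. PSAT1, the middle step, had 7.49, 7.59 and 8.37 with erastin and 7.22, 7.19 and 7.06 with DMSO. Its groups did not overlap, but erastin array 3 was far above the others, and the log2 fold change of 0.66 ± 0.18 did not pass (limma adjusted p = 0.162). GOT1, the cytosolic aspartate aminotransferase, rose by 0.35 ± 0.06.

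Of 10 measured amino acid transporters 5 rose, among them both subunits of the antiporter that erastin blocks. SLC7A11, its transport subunit, had signals of 9.76, 9.59 and 9.81 with erastin and 8.79, 8.87 and 8.88 with DMSO, and rose 1.83-fold (0.87 ± 0.06, limma adjusted p = 1.93e-05). SLC3A2, its heavy chain, had 9.65, 9.56 and 9.69 with erastin and 9.29, 9.28 and 9.15 with DMSO, and rose by 0.40 ± 0.07. SLC38A2, a sodium-coupled carrier of small neutral amino acids, rose by 0.67 ± 0.09, SLC1A4, an exchanger of alanine, serine and cysteine, by 0.51 ± 0.06, and SLC7A5, a carrier of large neutral amino acids, by 0.28 ± 0.05.

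The cytosolic aminoacyl-tRNA synthetase list, which also holds the tRNA exporter XPOT, had 4 raised members among 12 measured: SARS1 (0.32 ± 0.05), GARS1 (0.30 ± 0.05), CARS1 (0.25 ± 0.05) and WARS1 (0.25 ± 0.05), the enzymes for serine, glycine, cysteine and tryptophan. The list had a median of 0.22, and all 12 members had a positive log2 fold change. The 15 measured synthetases outside that list, many of them mitochondrial, had a median of −0.04, with 0 passing by limma and 12 of 15 negative. The last group, secreted proteins and other targets, had 6 raised genes among 17 measured and a median of 0.13. INHBE, the inhibin beta E chain, had 7.79, 7.58 and 8.06 with erastin and 6.29, 6.25 and 6.24 with DMSO, and rose 2.93-fold (1.55 ± 0.10). STC2, a secreted glycoprotein hormone, rose by 0.77 ± 0.06, and GDF15, a stress-induced cytokine of the TGF-beta family, by 0.69 ± 0.11. The endoplasmic reticulum proteins HERPUD1, which serves protein degradation, and XBP1, the transcription factor of the unfolded protein response, rose by 0.52 ± 0.05 and 0.51 ± 0.08. The lipoprotein receptor gene VLDLR rose by 0.42 ± 0.07. The angiogenic factor VEGFA, a member of the same list, had a log2 fold change of 0.10 ± 0.07 and did not pass.

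**Figure D2:**
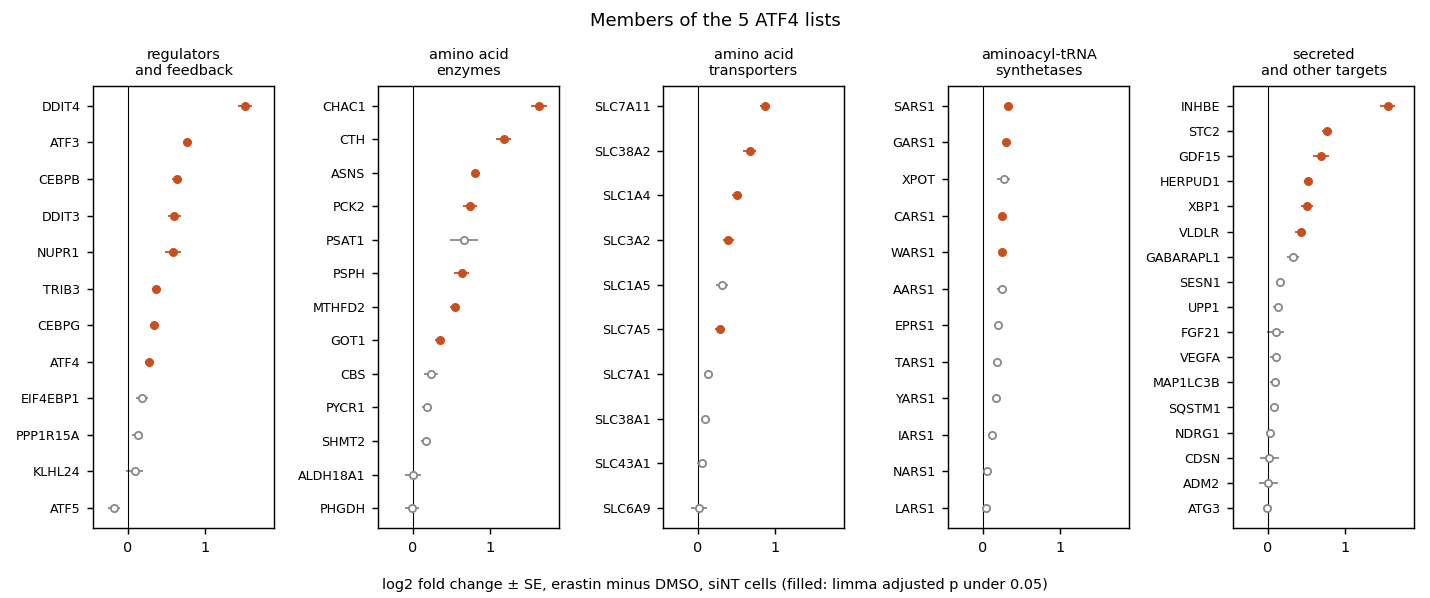
Log2 fold change of erastin over DMSO in siNT cells for the 64 measured genes of the 5 ATF4 lists, with bars of ± 1 standard error from limma (n = 3 arrays per group). Filled points passed at an adjusted p under 0.05: 8 of 12 regulators, 7 of 13 enzymes, 5 of 10 transporters, 4 of 12 synthetase list members and 6 of 17 other targets.

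Promoters were read for the letters TGATGNAA, the core of the C/EBP-ATF response element that ATF4 pairs are known to bind, and for its reverse complement TTNCATCA. The windows are those of RefSeq on GRCh38.p14, 250 bases before to 50 after each annotated start, and a gene can have several. A match was found in 10 of 42 windows of raised ATF4 list genes (23.8%), in 3 of 37 windows of raised genes outside the lists (8.11%), in 1 of 47 windows of lowered genes (2.13%) and in 345 of 14058 windows of all genes (2.45%). Windows were available for 26 of the 30, 24 of the 33, 30 of the 33 and 9563 of the 11963 genes. The other letters searched on both strands were TGACNNNGC, found in 26.2%, 16.2%, 10.6% and 14.3% of the windows in the same order, and CACGTG, found in 9.52%, 10.8%, 10.6% and 8.76%. A match describes the letters and does not show that a factor binds there. The stretches below, in the direction of the gene, show the match in capitals for 5 ATF4 list genes, for all 3 raised genes outside the lists that have one, and for the only lowered gene that has one.
CHAC1: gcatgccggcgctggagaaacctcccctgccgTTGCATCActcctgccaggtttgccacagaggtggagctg
ASNS: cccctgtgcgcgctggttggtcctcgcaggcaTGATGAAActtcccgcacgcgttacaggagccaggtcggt
CEBPG: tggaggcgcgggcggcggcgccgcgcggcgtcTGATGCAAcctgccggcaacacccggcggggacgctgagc
HERPUD1: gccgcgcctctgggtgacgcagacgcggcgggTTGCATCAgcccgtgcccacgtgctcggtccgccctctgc
SLC1A4: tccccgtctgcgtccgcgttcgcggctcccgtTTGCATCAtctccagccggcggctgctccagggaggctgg
AGT: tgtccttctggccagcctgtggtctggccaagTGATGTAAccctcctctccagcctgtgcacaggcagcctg
IFRD1: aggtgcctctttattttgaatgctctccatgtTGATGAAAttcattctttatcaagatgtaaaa
RSL24D1: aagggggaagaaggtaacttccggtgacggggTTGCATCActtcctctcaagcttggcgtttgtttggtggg
BCL2A1: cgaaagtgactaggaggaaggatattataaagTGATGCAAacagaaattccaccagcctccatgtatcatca
The stretches lie at chr15:40953230-40953301 on the plus strand (CHAC1), chr7:97872437-97872508 on the minus strand (ASNS), chr19:33374039-33374110 on the plus strand (CEBPG), chr16:56931934-56932005 on the plus strand (HERPUD1) and chr2:64989360-64989431 on the plus strand (SLC1A4). Those of the other genes lie at chr1:230714180-230714251 on the minus strand (AGT), chr7:112452044-112452107 on the plus strand (IFRD1), chr15:55196909-55196980 on the minus strand (RSL24D1) and chr15:79971220-79971291 on the minus strand (BCL2A1). The first base of the match lies 209 bases before the annotated start in CHAC1, 68 before in ASNS, 42 before in CEBPG, 176 before in HERPUD1 and 7 before in SLC1A4. It lies 97 bases before the start in AGT, 7 before in RSL24D1 and 63 before in BCL2A1, while that of IFRD1 lies 18 bases after it.

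Outside the ATF4 lists 33 genes rose, by 0.24 to 0.76 on the log2 scale, so the largest of these rises was 1.69-fold. HMOX1, TSC22D3, TXNIP, EGR1 and ASS1 passed with any 1 of the 6 siNT arrays left out. Of the 33, 5 to 15 passed with a given array left out, the fewest without erastin array 1 and the most without erastin array 2. A further 12 of the 33 passed in 0 of these 6 fits. Without erastin array 3, 13 passed, and all 33 kept their sign in each of these fits. Erastin array 3 lay farthest from DMSO in 21 of the 33 genes. With the actin difference as a covariate 20 passed, and in a fit of the 6 siNT arrays alone HMOX1 and TSC22D3 passed.

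HMOX1, the haem oxygenase that frees iron from haem and a standard target of the oxidant sensor NRF2, had signals of 10.76, 10.81 and 10.94 with erastin and 10.16, 10.18 and 10.10 with DMSO. The groups were well separated, and HMOX1 rose 1.61-fold (0.69 ± 0.06, limma adjusted p = 0.000102). AKR1C1, an aldo-keto reductase and another NRF2 target, had 7.20, 7.03 and 7.02 with erastin and 6.64, 6.71 and 6.76 with DMSO, and rose by 0.38 ± 0.07. A second, dimmer AKR1C1 probe set gave 0.25 ± 0.07 and the dimmest −0.13 ± 0.13, and the near-identical AKR1C genes may share signal. NRF2 targets as a list had 3 raised members of 31 measured, HMOX1, AKR1C1 and SLC7A11, and a median of 0.05. Every erastin array lay above every DMSO array for 32.3% of the 31, against 5.92% of all genes. AKR1C2 and AKR1C3, named after their values were seen, were apart in this way, with log2 fold changes of 0.23 ± 0.06 each that did not pass (limma adjusted p = 0.102 for both). NQO1, a quinone reductase often used as an NRF2 readout, had 10.49, 10.47 and 10.51 with erastin and 10.44, 10.43 and 10.53 with DMSO, and its groups overlapped. GCLM and GCLC, the subunits of the enzyme that starts glutathione synthesis, had log2 fold changes of 0.05 ± 0.07 and −0.02 ± 0.08, and NFE2L2, the gene of NRF2, of 0.12 ± 0.06. For NQO1, GCLM, GCLC and NFE2L2 the limma adjusted p lay between 0.478 and 0.982.

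TSC22D3, the glucocorticoid-induced leucine zipper and also a FOXO target, had signals of 9.39, 9.41 and 9.64 with erastin and 8.86, 8.84 and 8.83 with DMSO, and rose by 0.63 ± 0.07 (limma adjusted p = 0.00108). TXNIP, which inhibits thioredoxin and glucose uptake, had 10.81, 10.97 and 10.94 with erastin and 10.47, 10.42 and 10.40 with DMSO, and rose by 0.48 ± 0.05. Its other probe sets gave 0.54 ± 0.10 and 0.47 ± 0.10, close to the brightest. CCNG2, a cyclin-like protein linked to cell cycle arrest, had 9.03, 8.93 and 9.20 with erastin and 8.66, 8.72 and 8.63 with DMSO, and rose by 0.38 ± 0.07. Its other probe sets gave 0.47 ± 0.11 and 0.58 ± 0.24, and their mean with the brightest did not pass (limma adjusted p = 0.146). TXNIP and CCNG2 were the 2 called genes in the list of 17 measured FOXO and mTORC1-linked genes, which does not hold TSC22D3. The list had a median of 0.09, with 11 positive and 6 negative. Every erastin array lay above every DMSO array for 41.2% of the 17, against 5.92% of all genes. The insulin receptor substrate IRS2, in the same list, had overlapping groups and a log2 fold change of −0.05 ± 0.09.

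Among transcription factors, KLF4, which can hold epithelial cells out of the cell cycle, had the largest rise outside the ATF4 lists. Its signals were 7.98, 7.76 and 8.27 with erastin and 7.24, 7.32 and 7.17 with DMSO. The groups did not overlap but the erastin arrays were spread, so that the log2 fold change of 0.76 ± 0.14 passed narrowly (limma adjusted p = 0.0331, and 0.0219 to 0.118 with each array left out in turn). EGR1, an immediate early zinc finger factor, had 8.54, 8.42 and 8.46 with erastin and 8.0, 8.02 and 8.01 with DMSO, and rose by 0.47 ± 0.06. MAF, a basic leucine zipper factor, had 7.40, 7.34 and 7.65 with erastin and 6.86, 7.03 and 6.93 with DMSO, and rose by 0.52 ± 0.09. A second MAF probe set, at a mean signal of 7.30, gave 0.11 ± 0.06 and did not pass. HES1, a Notch-driven repressor, rose by 0.35 ± 0.06 and JAG1, a Notch ligand, by 0.32 ± 0.06, the 2 called genes of 14 measured in the Notch list. Of that list 14.3% had all erastin arrays above DMSO and 7.14% below, against 5.92% and 8.52% of all genes. A dim probe set of HES1 gave −0.12 ± 0.08 and the dimmest of JAG1 gave −0.0002 ± 0.09, while their brighter second probe sets gave 0.32 ± 0.10 and 0.26 ± 0.06. With the mean of all probe sets of a gene, KLF4, EGR1, MAF, HES1 and JAG1 did not pass, with limma adjusted p of 0.0644, 0.0840, 0.0785, 0.192 and 0.256. IFRD1, a transcriptional coregulator, rose by 0.30 ± 0.05. Of 26 immediate early genes 3 rose, ATF3, KLF4 and EGR1, and 1 fell, IER5 (−0.31 ± 0.05). All erastin arrays lay above DMSO for 19.2% of these 26 and below for 15.4%. FOS had signals of 4.34, 4.48 and 4.39 with erastin and 4.35, 4.46 and 4.51 with DMSO, near those of the markers of other cell types. MYC had a log2 fold change of 0.08 ± 0.07, and the groups of both genes overlapped.

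PMAIP1, the BH3-only protein NOXA, is a pro-apoptotic target of p53 and also of stress factors. It had 11.56, 11.65 and 11.93 with erastin and 11.23, 11.26 and 11.20 with DMSO, and rose by 0.48 ± 0.10 (limma adjusted p = 0.0407). It passed in 0 of the 6 fits with an array left out, where the limma adjusted p was 0.0565 to 0.156. A second PMAIP1 probe set gave 0.53 ± 0.08 (limma adjusted p = 0.0138), and the mean of its probe sets passed as well (limma adjusted p = 0.00658). ASS1, which joins citrulline and aspartate on the way to arginine, had 9.83, 9.90 and 9.78 with erastin and 9.49, 9.53 and 9.45 with DMSO, and rose by 0.35 ± 0.05. SLC3A1, a heavy chain of the renal cystine transporter and a relative of SLC3A2, was named after its values were seen, and had 10.57, 10.56 and 10.60 with erastin and 10.29, 10.31 and 10.34 with DMSO. It rose by 0.26 ± 0.05, a small change on arrays that did not overlap. TRIB1, a pseudokinase of the same family as TRIB3, rose by 0.34 ± 0.06. NBR1, a receptor that carries cargo to autophagosomes, rose by 0.33 ± 0.06, and CALCOCO1, another autophagy adaptor, by 0.31 ± 0.06.

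AGT, angiotensinogen, had 7.31, 7.33 and 7.35 with erastin and 6.67, 7.02 and 6.79 with DMSO, and rose by 0.50 ± 0.08. SCG2, secretogranin II, rose by 0.58 ± 0.10. CFI and C1R, proteases of the complement system, rose by 0.41 ± 0.06 and 0.31 ± 0.06. CTSO, a cysteine cathepsin, rose by 0.35 ± 0.07 and SMPDL3A, a secreted phosphodiesterase, by 0.36 ± 0.07. CCN5, a matrix-associated protein of the CCN family, rose by 0.28 ± 0.05. The log2 fold changes of the others named by the same rule were 0.34 for PBXIP1, which binds PBX factors, 0.34 for VAV3, a guanine nucleotide exchange factor, 0.34 for RSL24D1, a ribosome assembly factor, 0.33 for SLC34A2, a phosphate carrier, 0.35 for PAIP2B, a repressor of translation, and 0.31 for LARP6, which binds collagen messenger RNA. CALCB, a calcitonin-related peptide, had 3.85, 4.08 and 4.05 with erastin and 3.54, 3.34 and 3.55 with DMSO, below the median of each marker list of other cell types, so that its rise of 0.52 ± 0.10 is that of a dim probe set. The other 2 genes, named after their values were seen, were CCDC28A (0.28 ± 0.05) and TES (0.24 ± 0.05).

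**Figure D3:**
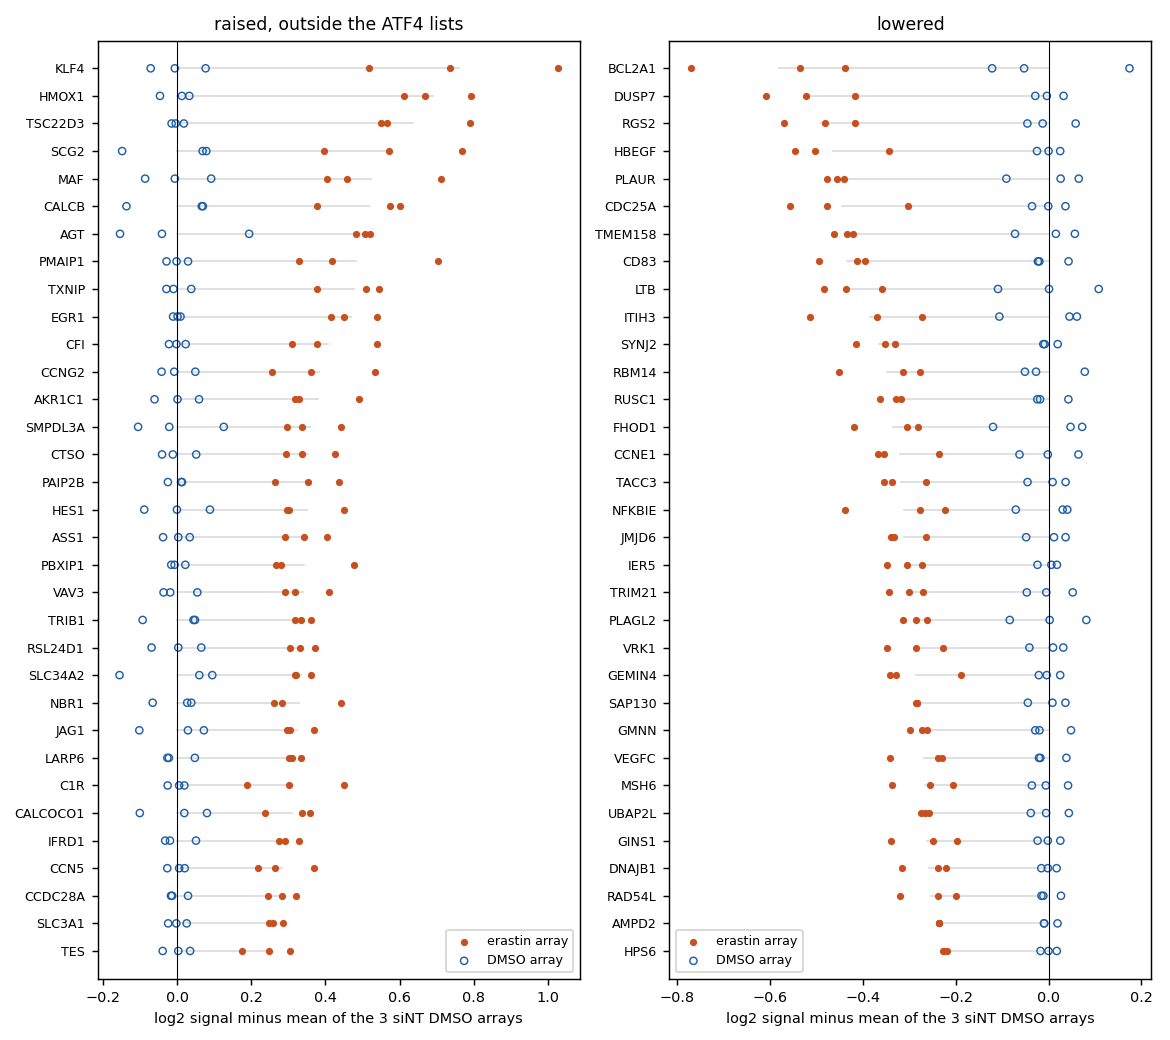
Log2 signal of every siNT array minus the mean of the 3 siNT DMSO arrays, for the 33 raised genes outside the ATF4 lists (left) and the 33 lowered genes (right). Filled points are erastin arrays and open points DMSO arrays, and the grey line runs to the erastin mean. The groups of every gene are apart, KLF4 and PMAIP1 have widely spread erastin arrays, and BCL2A1 has the largest mean fall at −0.58.

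The 33 lowered genes fell by 0.22 to 0.58 on the log2 scale, at most 1.5-fold. CD83, DUSP7, HBEGF, PLAUR and SYNJ2 passed with any 1 of the 6 siNT arrays left out. Of the 33, 7 to 17 passed with a given array left out, the fewest without DMSO array 1 or 2 and the most without erastin array 3, and all 33 kept their sign. Another 11 of the 33 passed in 0 of these 6 fits. With the actin difference as a covariate 20 passed, and in a fit of the 6 siNT arrays alone 0 of them passed by limma, where DUSP7 and RGS2 had adjusted p of 0.0506 and 0.0545. Erastin array 3 lay farthest from DMSO in 9 of the 33 genes.

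HBEGF, a ligand of the epidermal growth factor receptor, had 8.70, 8.74 and 8.90 with erastin and 9.27, 9.25 and 9.22 with DMSO. It fell 1.38-fold (−0.46 ± 0.07, limma adjusted p = 0.00611), and a second bright probe set gave −0.46 ± 0.05. DUSP7, a phosphatase that switches off ERK, had 6.45, 6.37 and 6.56 with erastin and 6.97, 7.01 and 6.95 with DMSO, and fell by 0.52 on the log2 scale (SE 0.06). HBEGF and DUSP7 were the 2 called genes of 20 measured in the list of ERK feedback genes and receptor ligands, which had a median of −0.01. Other members did not follow: DUSP6, the best known ERK-induced phosphatase, had 6.52, 6.41 and 6.82 with erastin and 6.32, 6.42 and 6.35 with DMSO, and DUSP1 and SPRY2 had log2 fold changes of −0.05 ± 0.07 and −0.06 ± 0.06. PLAUR, the urokinase receptor, had 9.46, 9.49 and 9.48 with erastin and 10.00, 9.96 and 9.84 with DMSO, with a tight erastin group, and fell 1.37-fold (−0.46 ± 0.05). RGS2, which restrains G protein signalling, had 6.75, 6.90 and 6.83 with erastin and 7.30, 7.37 and 7.27 with DMSO, and fell by 0.49 on the log2 scale (SE 0.09). TMEM158, a membrane protein known to be induced by Ras, changed by −0.44 ± 0.09, VEGFC, a lymphangiogenic growth factor, by −0.27 ± 0.05, and SYNJ2, an inositol phosphatase, by −0.37 ± 0.05. The second SYNJ2 probe set, at a mean signal of 8.70, gave −0.28 ± 0.07, and the 3 dimmer ones gave −0.13, 0.07 and −0.09. With the mean of all its probe sets SYNJ2 did not pass (limma adjusted p = 0.219).

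Among genes known from inflammation, BCL2A1, an NF-kB-driven survival protein of the BCL2 family, had 5.36, 5.12 and 5.46 with erastin and 5.77, 5.84 and 6.07 with DMSO, and fell by 0.58 on the log2 scale (SE 0.11) at a low signal. CD83, a membrane protein of activated dendritic and lymphoid cells, had 7.87, 7.79 and 7.89 with erastin and 8.26, 8.33 and 8.27 with DMSO, and fell by 0.43 on the log2 scale (SE 0.05, limma adjusted p = 0.00242). LTB, lymphotoxin beta, had 7.16, 7.03 and 7.08 with erastin and 7.51, 7.41 and 7.62 with DMSO, and changed by −0.43 ± 0.07. NFKBIE, an inhibitor of NF-kB that NF-kB itself induces, changed by −0.31 ± 0.06. It was the only called member of the list of 21 measured NF-kB targets and cytokines, which does not hold BCL2A1 or LTB. That list had a median of −0.18, with 19 of 21 members negative, and every erastin array lay below every DMSO array for 52.4% of its genes. Over all genes 51.6% were negative and 8.52% lay below in this way. The mean log2 signal of the NF-kB list was 7.82, 7.79 and 7.81 with erastin and 7.95, 7.99 and 8.0 with DMSO, and its median stayed between −0.19 and −0.14 with each siNT array left out. Members named after their values were seen did not pass singly: CCL2, a monocyte chemokine, had 9.64, 9.68 and 9.39 with erastin and 9.97, 9.98 and 10.40 with DMSO (−0.55 ± 0.12, limma adjusted p = 0.0672), and NFKBIA, the main NF-kB inhibitor, had 9.21, 9.17 and 9.28 with erastin and 9.43, 9.46 and 9.54 with DMSO (−0.26 ± 0.06, limma adjusted p = 0.0807). CXCL8, another member, went the other way, with a log2 fold change of 0.11 ± 0.07 and overlapping groups. In siTAZ cells CXCL8 had a log2 fold change of −0.41 ± 0.07 and passed (limma adjusted p = 0.0155).

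Genes of S phase and of G2 and M phase had small differences, mostly below 0. CDC25A, a phosphatase that lets cells enter S phase, had 7.80, 7.97 and 7.72 with erastin and 8.24, 8.27 and 8.31 with DMSO, and fell 1.36-fold (−0.45 ± 0.07, limma adjusted p = 0.0186). CCNE1, cyclin E1, had 7.99, 7.98 and 8.11 with erastin and 8.34, 8.41 and 8.28 with DMSO, and changed by −0.32 ± 0.06. GINS1, a subunit of the replicative helicase, changed by −0.26 ± 0.05, GMNN, the licensing inhibitor geminin, by −0.28 ± 0.05, MSH6, a mismatch repair protein, by −0.27 ± 0.05 and TACC3, a spindle protein, by −0.32 ± 0.05. CCNE1 and GINS1 were the only called members of the list of 32 measured S phase genes, which does not hold CDC25A, GMNN or MSH6. The list had a median of −0.14, with 31 of 32 members negative, TK1 being the exception at 0.03, against 51.6% of all genes. Every erastin array lay below every DMSO array for 56.2% of the list, against 8.52% of all genes. Its mean log2 signal was 9.38, 9.36 and 9.43 with erastin and 9.56, 9.54 and 9.50 with DMSO, and the median stayed between −0.16 and −0.12 with each array left out. CCNE2, cyclin E2, was named after its values were seen. It had 8.31, 8.12 and 8.53 with erastin and 8.86, 8.73 and 8.62 with DMSO, the largest difference of the list, but did not pass (−0.42 ± 0.09, limma adjusted p = 0.0658). Of 33 measured genes in the list of G2 and M phase, which does not hold TACC3, 0 passed by limma. Of these 33, 30 were negative, with a median of −0.09. In this list 36.4% lay wholly below, against 8.52% of all genes. The mean log2 signal of that list was 9.85, 9.82 and 9.87 with erastin and 9.95, 9.93 and 9.93 with DMSO. The list of D cyclins and cell cycle inhibitors had 0 called of 14 measured and a median of 0.002, with 7 positive and 7 negative. Of these genes 35.7% lay wholly above and 7.14% wholly below, against 5.92% and 8.52% of all genes.

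The remaining lowered genes have varied roles. DNAJB1, an HSP40 co-chaperone, changed by −0.26 ± 0.05 and was the only called gene of 19 heat shock and co-chaperone genes, whose median was −0.05. Of the 19, 15 were negative and 26.3% lay wholly below, against 51.6% and 8.52% of all genes. In siTAZ cells the list had a median of −0.08, with 15 negative. The second DNAJB1 probe set gave −0.12 ± 0.11, and with the mean of its probe sets DNAJB1 did not pass (limma adjusted p = 0.36). JMJD6 (−0.31), a lysyl hydroxylase, RBM14 (−0.35), an RNA-binding coactivator, GEMIN4 (−0.29), of the SMN complex, and UBAP2L (−0.27), of stress granules, act in RNA biology. RUSC1 (−0.34), FHOD1 (−0.34), a formin, TRIM21 (−0.31), a ubiquitin ligase that binds antibodies in the cytosol, PLAGL2 (−0.29), a zinc finger factor, VRK1 (−0.29), a nuclear kinase, and SAP130 (−0.28), a subunit of the SIN3 corepressor, complete those named by rule, with ITIH3 (−0.39). ITIH3 was dim, at 3.43, 3.67 and 3.57 with erastin and 4.0, 3.84 and 3.99 with DMSO. The other 3, named after their values were seen, were RAD54L (−0.25), of homologous recombination, AMPD2 (−0.24), an AMP deaminase, and HPS6 (−0.22), of lysosome-related organelles.

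The lists of p53 targets and of autophagy and lysosome genes had medians above 0. Of 19 measured p53 targets 0 passed by limma, with 15 positive and a median of 0.11, and every erastin array lay above every DMSO array for 36.8%, against 5.92% of all genes. PMAIP1, named above as a p53 target, rose but is not in this list. The mean log2 signal of the list was 9.18, 9.19 and 9.29 with erastin and 9.12, 9.09 and 9.09 with DMSO. CDKN1A, the cyclin-dependent kinase inhibitor p21, had 10.45, 10.37 and 10.40 with erastin and 10.20, 10.18 and 10.14 with DMSO, just short of the threshold (0.24 ± 0.05, limma adjusted p = 0.0559). GADD45A, named after its values were seen, had 11.47, 11.48 and 11.56 with erastin and 11.31, 11.19 and 11.18 with DMSO (0.28 ± 0.06, limma adjusted p = 0.0657). Of 26 measured autophagy and lysosome genes 0 passed by limma, with 20 positive, a median of 0.06 and 34.6% lying wholly above. NBR1, CALCOCO1 and the cathepsin CTSO rose but are not in this list. The mean signals of that list were 9.63, 9.60 and 9.69 with erastin and 9.60, 9.59 and 9.56 with DMSO, so that its highest DMSO array was about level with its lowest erastin array. ATG3, GABARAPL1, MAP1LC3B and SQSTM1 of that list, and SESN1 of the p53 list, also stand in the ATF4 lists.

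**Figure D4:**
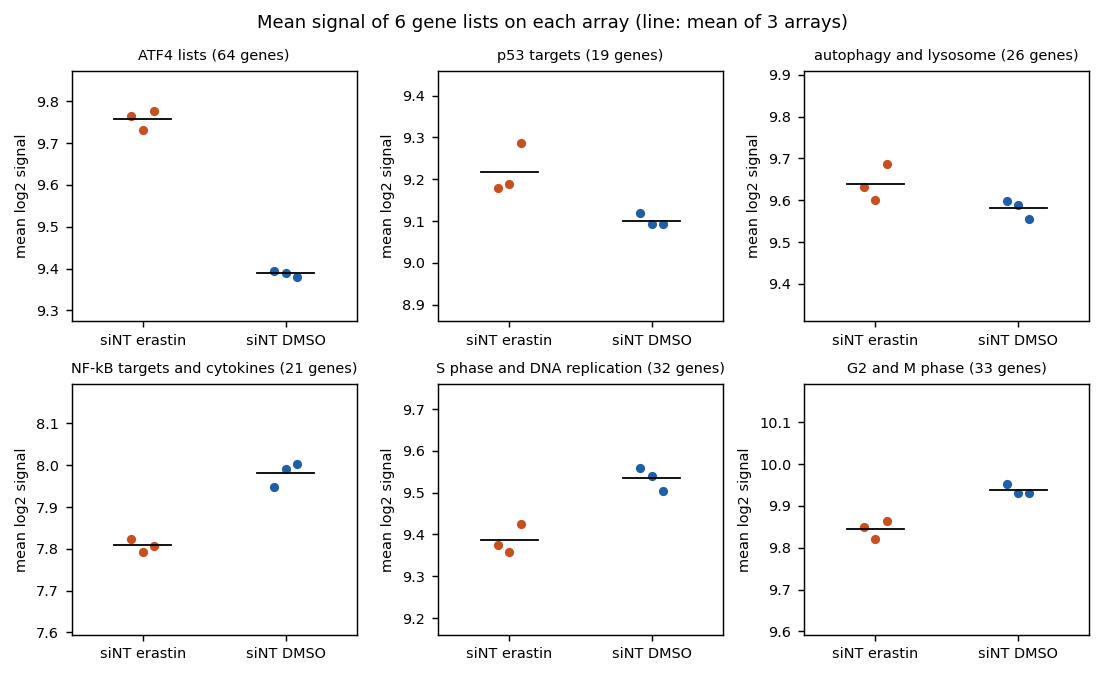
Mean log2 signal of 6 gene lists on each siNT array, with a line at the mean of 3 arrays. Erastin arrays are on the left of each panel and DMSO arrays on the right, each panel has its own range of values, and all have the same span. The ATF4 lists are at 9.73 to 9.78 with erastin and 9.38 to 9.39 with DMSO, while the NF-kB, S phase and G2 and M lists are lower on every erastin array.

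Few genes in the lists of lipid and radical defence, iron and haem, and glutathione passed the test. SLC7A11, CHAC1 and CTH, which rose and act in cystine, cysteine or glutathione metabolism, stand in the ATF4 lists and not in these. Of 24 measured genes of lipid and radical defence only SLC3A2 rose, and the median was 0.005. GPX4, the peroxidase that removes lipid peroxides, had 11.84, 11.80 and 11.70 with erastin and 11.70, 11.66 and 11.95 with DMSO. ACSL4, which loads polyunsaturated fatty acids into lipids, had 7.68, 7.57 and 7.96 with erastin and 7.85, 7.80 and 7.64 with DMSO. TFRC, the transferrin receptor, had 12.68, 12.58 and 12.64 with erastin and 12.61, 12.58 and 12.52 with DMSO. The groups of these genes overlapped. PTGS2, cyclooxygenase 2 and a common transcript marker of ferroptosis, had 6.42, 6.37 and 6.99 with erastin and 6.19, 6.22 and 6.02 with DMSO, apart but with a high erastin array 3, and did not pass (0.44 ± 0.13, limma adjusted p = 0.214). Iron and haem genes had 1 called member of 22, HMOX1, and glutathione and selenoprotein genes 0 of 21 by limma, with medians of −0.002 and 0.05. Cholesterol synthesis and uptake genes had 0 called of 25 and a median of −0.0004. The targets of hypoxia-inducible factors, which are high in this line, had 2 called of 37, DDIT4 and STC2, both of which are also ATF4-linked, and a median of 0.04. Of these targets 16.2% lay wholly above and 10.8% wholly below, against 5.92% and 8.52% of all genes. Chaperones and degradation genes of the endoplasmic reticulum had 2 called of 24, XBP1 and HERPUD1, which also stand in the ATF4 lists, and a median of −0.04. HSPA5, the chaperone BiP and the usual readout of that response, had 12.44, 12.29 and 12.33 with erastin and 12.39, 12.31 and 12.34 with DMSO. WWTR1 and YAP1 had log2 fold changes of −0.02 ± 0.07 and 0.01 ± 0.07, and 0 of 20 YAP/TAZ targets passed by limma.

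The siTAZ arrays gave a second measurement of erastin against DMSO, on 6 arrays that share no sample with the siNT arrays. Both sets share the variance estimate of the fit. The actin difference averaged 3.25 ± 0.33 on siTAZ erastin and 2.65 ± 0.04 on siTAZ DMSO arrays (SD, n = 3 each). The siNT arrays went the other way, with 2.26 ± 0.69 and 2.68 ± 0.28. Its part in the gaps between siNT and siTAZ responses was not tested beyond the covariate fit. In that fit the response differed for 0 genes by limma. In siTAZ cells 0.460% of genes rose and 0.100% fell. Of the 30 raised ATF4 list genes all 30 had a positive log2 fold change there and 25 passed (83.3%), with medians of 0.56 in siNT cells and 0.60 in siTAZ cells. Of the 33 raised genes outside the lists 29 were positive and 4 passed (12.1%), with medians of 0.35 in siNT cells and 0.15 in siTAZ cells. Of the 33 lowered genes 30 were negative and 4 passed (12.1%), with medians of −0.31 and −0.14. The genes were selected in siNT cells, so their siNT medians carry the effect of that choice and the siTAZ medians do not. Called in both were HMOX1 (0.69 in siNT and 0.49 in siTAZ cells), TSC22D3 (0.63 and 0.54), PMAIP1 (0.48 and 0.50) and IFRD1 (0.30 and 0.27) among raised genes, and HBEGF (−0.46 and −0.41), PLAUR (−0.46 and −0.28), DUSP7 (−0.52 and −0.29) and FHOD1 (−0.34 and −0.32) among lowered genes. Outside the ATF4 lists the largest gaps among the called genes were those of LTB, with −0.43 ± 0.07 in siNT cells and 0.12 ± 0.07 in siTAZ cells, RGS2, with −0.49 ± 0.09 and 0.03 ± 0.09, JAG1, with 0.32 ± 0.06 and −0.10 ± 0.06, and MAF, with 0.52 ± 0.09 and 0.11 ± 0.09. The interaction term, which tests the difference between the responses, passed for 0 of 11963 genes in limma, with 764 at an unadjusted p under 0.05 and a lowest adjusted p of 0.0583. For LTB, RGS2, JAG1 and MAF its limma adjusted p was 0.282, 0.614, 0.293 and 0.770. JAG1 passed under alternative settings, at 0.0397 without genes under the 50th percentile and at 0.00612 with an intensity trend, and ASS1 (0.35 in siNT and 0.002 in siTAZ cells) passed at 0.0478 with the trend. CXCL8 (0.11 in siNT and −0.41 in siTAZ cells) also passed under both settings, at 0.0394 and 0.0088. JADE2 passed at 0.046 with that percentile filter, and ALDH1A1 at 0.0411 with the trend. ASNS, INHBE and SLC7A11 shared the lowest adjusted p of 0.0583 in the main fit. They had log2 fold changes of 0.81, 1.55 and 0.87 in siNT cells and 1.34, 2.57 and 1.48 in siTAZ cells. They passed at 0.0376 when each array was first centred on its median. The S phase list had a median of −0.14 in siNT cells and −0.09 in siTAZ cells, and the NF-kB list −0.18 and −0.11. The G2 and M list had −0.09 in siNT cells and 0.02 in siTAZ cells, and the p53 list 0.11 and 0.07.

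**Figure D5:**
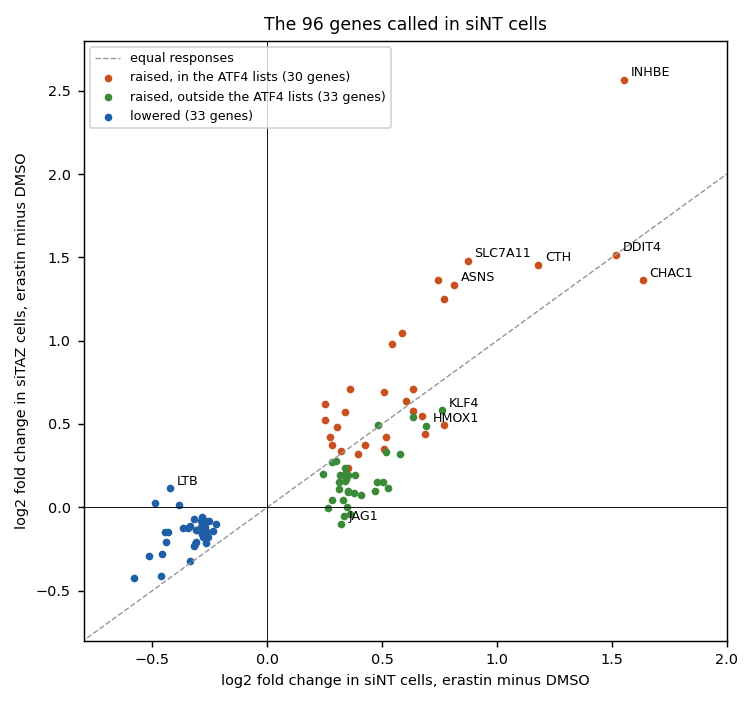
Log2 fold change of erastin over DMSO in siTAZ cells (vertical axis) against that in siNT cells (horizontal axis), for the 96 genes called in siNT cells; the dashed line marks equal responses. All 30 ATF4 list genes are positive on both axes, while the 33 other raised genes have a siTAZ median of 0.15 and the 33 lowered genes of −0.14.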

How the data were processed

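Log2 probe set signals were used as the authors deposited them. The submitters' processing notes name RMA and the Affymetrix Expression Console, with versions not given in the sources used here. They ran from 2.02 to 14.4, with array medians of 6.48 to 6.54. A transformation of each gene that the series text mentions is not seen in these values. The arrays hold 22277 probe sets. Controls (62), those of several genes (1043) and those with no gene listed (2108) were dropped. The remaining 19064 stand for 11963 genes, and where a gene had more than 1 (4310 genes), the brightest over 12 arrays was used.

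All 12 arrays entered 1 limma fit (3.58.1, R 4.3.3) with a mean for each group, checked on simulated data. The number of arrays limits the precision. Members and the 41 lists (5 of them ATF4 lists) were chosen with earlier results of these data known. The text names any ATF4 list gene, the 30 largest called non-overlapping rises and falls outside, up to 6 called genes per list and 24 fixed genes, and states each exception. Other genes are named with a value where a list's uncalled members are described.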

Additional observations from a re-analysis of the deposited data

How the results depend on the processing

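Genes raised, lowered and raised in the ATF4 lists numbered 63, 33 and 30. They numbered 64, 35 and 30 after centring on array medians, 75, 41 and 30 after a second quantile normalisation, 55, 32 and 29 with the mean of all probe sets, 62, 33 and 30 in a robust fit and 51, 34 and 26 with the actin difference as a covariate. Without genes under the 25th percentile 85 rose, 54 of them outside the ATF4 lists, and 59 fell. Without those under the 50th percentile 104 rose, 70 of them outside, and 118 fell. An intensity trend gave 104 raised, 66 outside, and 77 lowered. Array weights gave 146, 110 and 178. A fit of only the 6 siNT arrays gave 15 raised, 13 in the ATF4 lists and 2 outside, and 0 lowered. Requiring a log2 fold change of at least 0.5 left 26 raised, 19 in the lists and 7 outside, and 2 lowered. Leaving out 1 siNT array gave 22 to 42 raised (16 to 22 in the lists, 5 to 20 outside) and 7 to 28 lowered. The cause of these differences was not tested.

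Deviations of same-numbered erastin and DMSO arrays from their group means correlated at −0.073, −0.274 and −0.417, with no positive value. These correlations cannot decide whether the arrays were paired, because the large deviations of single arrays, such as erastin array 3, could mask it. With a replicate block 29 rose, 19 in the ATF4 lists and 10 outside, and 10 fell. Under the settings above no called gene changed sign. With the mean of all probe sets 17 called genes did not pass. Besides KLF4, EGR1, MAF, HES1, JAG1, CCNG2 and SYNJ2 they were AKR1C1, DNAJB1, GEMIN4, MSH6, NBR1, PLAGL2, SLC3A1, UBAP2L, VAV3 and WARS1. Dimmer probe sets reversed AKR1C1 (−0.13), GDF15 (−0.0084), HES1 (−0.12), JAG1 (−0.00019), MSH6 (0.0077), SYNJ2 (0.074) and UBAP2L (0.021). The count of genes whose response differed between siNT and siTAZ cells was 0 as reported. It was 3 after centring, quantile normalisation, the 25th percentile filter or array weights (ASNS, INHBE and SLC7A11 in each). It was 8 with the 50th percentile filter and 11 with the trend (JAG1 and CXCL8 in both), and 0 to 1 with a siNT array left out.
No detection calls were used, and CALCB and ITIH3 had signals below the median of each marker list of other cell types.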

Other observations

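Some gene groups that the comparison had not touched showed little difference. Of 33 extracellular matrix genes, 31 oxidative phosphorylation genes, 18 ribosomal protein genes and 18 ribosome biogenesis genes, 0 passed by limma in siNT cells, with median log2 fold changes of 0.01, 0.02, 0.02 and −0.05. Of the ribosome biogenesis genes 15 were negative and 3 positive, where 51.6% of all genes were negative. Their median stayed between −0.06 and −0.01 with each siNT array left out, and 5.56% of them lay wholly below, against 8.52% of all genes. Of 27 interferon-stimulated genes 0 passed, with a median of 0.05 in siNT cells. Every erastin array lay above every DMSO array for 14.8% of them, against 5.92% of all genes. Of 14 metallothionein and zinc genes 0 passed, with a median of −0.04. In the list of TGF-beta and BMP feedback genes INHBE was the only called gene of 21. SKI, a repressor of SMAD signalling, was named after its values were seen: it had signals of 6.62, 6.15 and 6.61 with erastin and 6.96, 7.00 and 6.93 with DMSO, apart but not called (−0.50 ± 0.12, limma adjusted p = 0.0994). EPHX1, an epoxide hydrolase and NRF2 target, likewise had 5.84, 6.10 and 5.93 with erastin and 5.77, 5.62 and 5.42 with DMSO (0.35 ± 0.09, limma adjusted p = 0.145).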
